A study of Drosophila melanogaster with 18 samples.

Results

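The genes described here are 8 heat shock and chaperone genes whose RNA was present in Drosophila melanogaster embryos before nuclear cycle 9: Hsp83, Hsp26, Hsp27, Hsp23, Hsc70-3, Hsc70-4, DnaJ-1 and Hsf. They were taken by name from a table of 16680 genes, and all 8 were among the 8467 genes that passed the filter on low counts. Each had at least 22.7 CPM (counts per 1000000 counts, scaled by library composition) in every library before cycle 9. The study profiled total RNA of embryos depleted of CBP (the histone acetyltransferase encoded by nej) or of E(z) (the histone methyltransferase of Polycomb repressive complex 2), and compared them with WT embryos. There were 3 replicates of each genotype at each of 2 stages, which gave 18 libraries. The later stage was cycle 14 (c14), when the embryo cellularizes and its own genome is broadly transcribed, and the earlier stage was before cycle 9 (bfc9).

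CBP-KD embryos came from mothers that expressed a short hairpin RNA against nej in the germ line, from a line made in the laboratory. E(z)-KD embryos came from mothers that expressed a hairpin against E(z) from a TRiP collection line. In both cases the hairpin was driven by a maternal tubulin Gal4 driver, so that the depletion began in the ovary, and WT was a TRiP control line. Each knockdown therefore rests on 1 hairpin line, and the sources used here do not state whether the WT mothers carried the driver. Embryos of each group were laid within 1 h at 25 °C and staged by hand under oil, and the sources describe no heat shock. The paper describes RNA of whole embryos, whereas the sample labels name nuclear RNA. The labels call the replicates replicates without saying more. The p-values below measure the spread between these libraries, and the main edgeR fit shared 1 estimate of it between all 6 groups.

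Heat shock proteins bind unfolded or partly folded proteins and keep them from aggregating until they are refolded or degraded. Small heat shock proteins hold such clients without using ATP, Hsp70 proteins bind and release them in an ATP cycle that J-domain proteins start, and Hsp90 acts late in the maturation of kinases, receptors and other clients. Most of these genes are known for their induction by heat through the transcription factor Hsf, but in Drosophila several of them are also transcribed without stress in the nurse cells of the ovary, and their RNA is loaded into the egg. Maternal RNA is cleared during the first hours of development, in part by maternally supplied factors and in part by factors made from the zygotic genome.

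Depth ranged over 6243486 to 18262569 estimated counts a library at cycle 14, where WT replicate 1 was the smallest, and over 13918034 to 17946980 in the earlier stage. A count of 3 was worth 0.156 to 0.474 CPM at cycle 14 and 0.166 to 0.229 CPM in the earlier stage, far below each of the 8 genes, and this floor covers counting error alone. Each targeted gene was lowest in its own knockdown. The nej RNA averaged 580 CPM in CBP-KD and 1960 CPM in WT at cycle 14, and 268 CPM in CBP-KD and 1122 CPM in WT before cycle 9. The E(z) RNA averaged 4.74 CPM in E(z)-KD and 33.1 CPM in WT at cycle 14, and 0.182 CPM in E(z)-KD and 103 CPM in WT before cycle 9. The E(z) RNA was also low in CBP-KD at cycle 14, at 7.26 to 14.9 CPM against 31.9 to 34.6 CPM in WT. RNA of 5 follicle cell and eggshell genes summed to at most 0.212 CPM in any library.

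Together the 8 genes took a smaller share of the libraries at cycle 14 than before cycle 9. Their sum was 0.519% ± 0.0170 of the library in CBP-KD, 0.487% ± 0.0172 in E(z)-KD and 0.487% ± 0.0172 in WT at cycle 14, against 1.08% ± 0.00295 in CBP-KD, 1.02% ± 0.0116 in E(z)-KD and 1.01% ± 0.0254 in WT before cycle 9 (SD, n = 3). Levels of different genes were compared per length, as transcripts per 1000000 (TPM) over merged exons. In WT before cycle 9, Hsp83 (2719 ± 103 TPM) and Hsp26 (2715 ± 61.8 TPM) stood highest and their libraries overlapped. They were followed by Hsc70-4 (2210 ± 124 TPM), then Hsc70-3 (525 ± 27.3 TPM) and Hsp27 (516 ± 22.7 TPM), whose libraries overlapped each other. DnaJ-1 (275 ± 8.60 TPM), Hsf (210 ± 15.2 TPM) and Hsp23 (77.2 ± 4.80 TPM) came last, with no overlap between neighbours.

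The order of the genes was different at cycle 14. In WT, Hsc70-4 (2365 ± 260 TPM) stood far above the next gene, Hsc70-3 (130 ± 16.9 TPM). Hsp23 (112 ± 12.8 TPM) and Hsp83 (108 ± 12.5 TPM) followed. The libraries of Hsc70-3 and Hsp23 overlapped, as did those of Hsp23 and Hsp83, while those of Hsp83 stood above Hsf. Hsf stood at 66.5 ± 7.59 TPM, Hsp26 at 57.0 ± 5.40 TPM, DnaJ-1 at 35.5 ± 1.41 TPM and Hsp27 at 13.9 ± 2.21 TPM, with an overlap between Hsf and Hsp26. In both knockdowns Hsp26 stood next after Hsc70-3 at cycle 14, at 171 ± 35.7 TPM in CBP-KD and 122 ± 15.0 TPM in E(z)-KD. These orders were the same with the longest annotated transcript as the length.

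**Figure D1:**
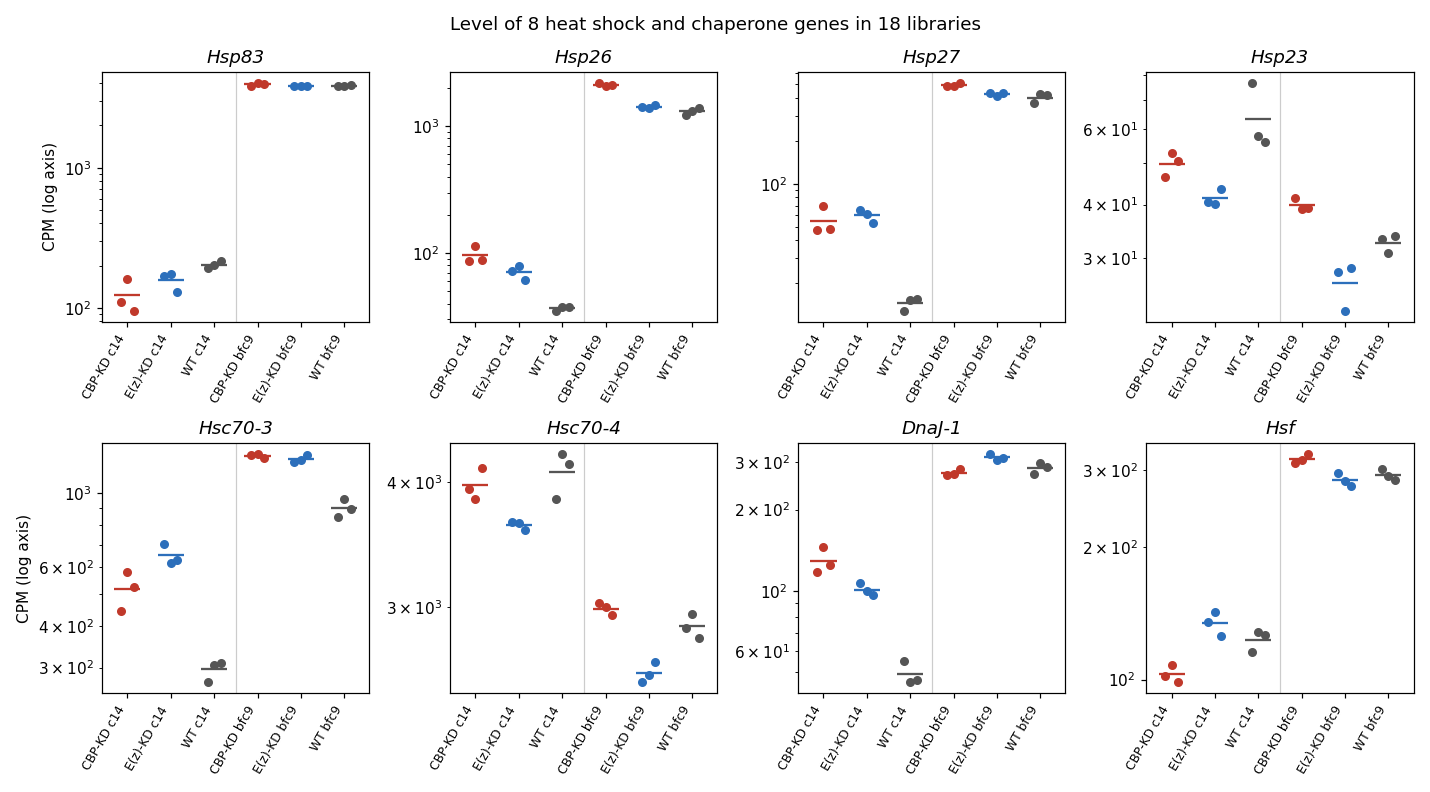
CPM of each gene in each of the 18 libraries on a log axis, with cycle 14 (c14) left of the grey line and before cycle 9 (bfc9) right of it. Points are libraries and bars are means of 3. Hsp83, Hsp26 and Hsp27 lie far lower at c14 than at bfc9, Hsp23 and Hsc70-4 lie higher at c14, and at c14 the WT points of Hsp26, Hsp27, Hsc70-3 and DnaJ-1 lie under those of both knockdowns.

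The comparison of stages asked how far the RNA level of each gene differed between cycle 14 and before cycle 9. In WT, 6 of the 8 genes were called lower, with a call requiring an edgeR adjusted p under 0.05 and a change of at least 2-fold, while 29.8% of the 8467 genes tested were called lower. Among the 5952 genes with at least 10 CPM in WT before cycle 9, 39.3% were called lower and the median log2 fold change was -0.42. The median over the 8 genes was -2.08 and that over all genes tested was 0.13. By the adjusted p alone all 8 passed, as did 87.0% of genes. In these bulk libraries, fewer cells or embryos with the RNA and less RNA in each cannot be told apart, and a CPM is a share of the library and not an amount per embryo. RNA left from the mother and RNA newly made by the embryo cannot be told apart either. A decline below is therefore a lower level of both together.

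Hsp26, Hsp83 and Hsp27 were the genes with the steepest decline in WT. Hsp26, a small heat shock protein with strong ovarian expression, had 35.2, 37.5 and 37.4 CPM in the WT libraries at cycle 14, against 1225, 1324 and 1393 CPM before cycle 9. It was 35.6-fold lower at cycle 14 (log2 fold change -5.16 ± 0.11 SE, edgeR adjusted p = 6.35e-16). Hsp27, the neighbouring small heat shock gene, had 12.8, 15.2 and 15.4 CPM at cycle 14, against 369, 424 and 418 CPM before cycle 9, and was 27.5-fold lower (log2 fold change -4.78 ± 0.15 SE, edgeR adjusted p = 1.68e-14). Hsp83, which encodes the cytosolic Hsp90 of flies and is a classic maternal RNA, had 192, 203 and 216 CPM at cycle 14, against 3834, 3846 and 3870 CPM before cycle 9. It was 18.9-fold lower (log2 fold change -4.24 ± 0.15 SE, edgeR adjusted p = 1.21e-13). The libraries of the 2 stages were far apart for each of these genes, and the 3 lay at percentiles 2.66 (Hsp26), 3.50 (Hsp27) and 5.31 (Hsp83) of the maternal genes.

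The other called genes declined less. DnaJ-1, a J-domain co-chaperone of Hsp70, averaged 49.2 ± 4.89 CPM at cycle 14 and 285 ± 13.5 CPM before cycle 9 in WT (5.84-fold lower). Hsc70-3, the Hsp70 of the endoplasmic reticulum known as BiP, averaged 296 ± 21.1 CPM at cycle 14 and 902 ± 56.2 CPM before cycle 9 (3.04-fold lower). Hsf averaged 123 ± 6.95 CPM at cycle 14 and 293 ± 8.69 CPM before cycle 9 (2.37-fold lower). The edgeR adjusted p of these 3 genes lay between 2.51e-14 and 1.58e-11. With DESeq2 the log2 fold change of Hsf was -0.99, just short of the 2-fold threshold.

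Hsp23 and Hsc70-4 went the other way, with a higher level at cycle 14 than before cycle 9. Whether their maternal RNA declined was not tested. Hsp23, another gene of the small heat shock cluster, had 76.6, 57.7 and 56.0 CPM in WT at cycle 14, against 33.2, 30.9 and 33.8 CPM before cycle 9. It was higher by 0.95 ± 0.10 SE on the log2 scale (edgeR adjusted p = 2.6e-07), under the 2-fold threshold. It passed this threshold under 3 of the alternative settings and without WT c14 replicate 2 or 3 (1.00 and 1.02). With 1 library left out the value ranged over 0.79 to 1.02. The highest WT value at cycle 14 came from replicate 1, the smallest library. Hsc70-4, the abundant constitutive Hsp70 of the cytosol, averaged 4096 ± 216 CPM at cycle 14 and 2870 ± 80.5 CPM before cycle 9 (log2 fold change 0.51 ± 0.04 SE, edgeR adjusted p = 2.41e-09). For both genes the WT libraries of the stages did not overlap.

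In the knockdowns the same 3 genes declined most, but by other amounts. In CBP-KD, 6 of the 8 genes were called lower at cycle 14 than before cycle 9 (27.6% of all genes, and 83.6% passed by the adjusted p alone). In E(z)-KD, 5 of the 8 were called lower (26.5% of all genes, and 84.3% by the adjusted p alone), since Hsc70-3 was 1.95-fold lower and missed the threshold. Hsp83 was 32.0-fold lower at cycle 14 in CBP-KD, 24.4-fold in E(z)-KD and 18.9-fold in WT. Hsp26 was 22.03-fold lower in CBP-KD, 19.98-fold in E(z)-KD and 35.6-fold in WT. Hsp27 was 8.93-fold lower in CBP-KD, 7.11-fold in E(z)-KD and 27.5-fold in WT. DnaJ-1 was 2.12-fold lower in CBP-KD, 3.08-fold in E(z)-KD and 5.84-fold in WT. Hsf was 3.09-fold lower in CBP-KD, 2.12-fold in E(z)-KD and 2.37-fold in WT. Some of these changes lay near the 2-fold threshold. DnaJ-1 in CBP-KD fell under it with DESeq2 (-0.95), library size scaling (-0.96) and a stricter filter (-0.94), Hsf in E(z)-KD with DESeq2 (-0.98) and the stricter filter (-0.96), and Hsc70-3 in E(z)-KD passed it without E(z)-KD c14 replicate 1 (-1.03). Hsp23 and Hsc70-4 were higher at cycle 14 in each genotype, with log2 fold changes of 0.32 and 0.41 in CBP-KD, 0.65 and 0.49 in E(z)-KD, and 0.95 and 0.51 in WT.

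**Figure D2:**
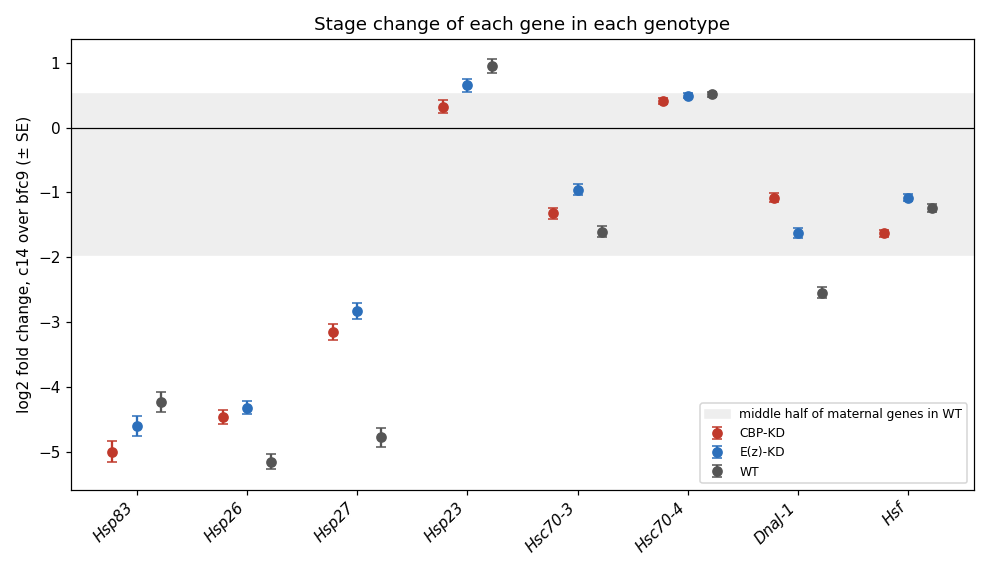
Log2 fold change of cycle 14 over before cycle 9 for each gene in CBP-KD, E(z)-KD and WT, as points with SE bars from the edgeR fit; the grey band spans the quartiles of the 5952 maternal genes in WT (-1.96 to 0.51). The WT point is lowest for Hsp26, Hsp27, Hsc70-3 and DnaJ-1 and highest for Hsp83, Hsp23 and Hsc70-4.

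At cycle 14, Hsp27, Hsp26, DnaJ-1 and Hsc70-3 were higher in both knockdowns than in WT in every library, while Hsp83 and Hsp23 were lower. In CBP-KD, 3 of the 8 genes were called higher (Hsp26, Hsp27 and DnaJ-1), against 12.0% of all genes, and 7 passed by the adjusted p alone, against 67.1%. In E(z)-KD, 3 were called higher (Hsp27, Hsc70-3 and DnaJ-1), against 11.3% of all genes, and 7 passed by the adjusted p alone, against 64.0%. None was called lower in either. Over all genes, 44.1% of the calls in CBP-KD and 46.5% in E(z)-KD were higher and the rest lower. The median log2 fold change over the 8 genes was 0.38 in CBP-KD and 0.54 in E(z)-KD, and over all genes 0.01 and -0.03. The 2 comparisons share their WT libraries. The 5952 maternal genes went both ways: 9.46% were called higher and 7.16% lower in CBP-KD, and 9.49% higher and 6.23% lower in E(z)-KD, with median log2 fold changes of 0.08 and 0.04.

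Marker genes of the stages also differed between the genotypes at cycle 14. The summed CPM of 5 maternal markers (bcd, nos, osk, gcl and CycB) ranged over 4357 to 5108 in CBP-KD, 3837 to 4278 in E(z)-KD and 1878 to 2178 in WT, and 4 of the 5 were called higher in CBP-KD and 2 in E(z)-KD. The sum of 7 zygotic blastoderm markers (twi, sna, ftz, eve, sog, nullo and bnk) ranged over 460 to 696 CPM in CBP-KD, 1151 to 1451 CPM in E(z)-KD and 1733 to 1859 CPM in WT, and 5 of the 7 were called lower in CBP-KD and 3 in E(z)-KD. Among these, nullo had a higher mean than WT in both knockdowns and bnk in E(z)-KD. The marker nullo averaged 75.1 CPM in CBP-KD and 115.3 CPM in E(z)-KD, against 59.4 CPM in WT, and bnk averaged 246 CPM in CBP-KD and 501 CPM in E(z)-KD, against 388 CPM in WT, and neither was called. The germ line markers vas, pgc and nos summed to 155 to 195 CPM in CBP-KD, 119 to 146 CPM in E(z)-KD and 100.2 to 105 CPM in WT, with 1 of the 3 called higher in CBP-KD and 0 in E(z)-KD. Genes of older embryos (Mhc, elav, repo, Act57B and Tm2) summed to 14.1 to 30.7 CPM in CBP-KD, 24.5 to 36.1 CPM in E(z)-KD and 116 to 136 CPM in WT, nearly all of it elav, while Tm2 was at 0 in each group and Act57B in the knockdowns. None of the maternal, zygotic or germ line markers was at 0 in any of these groups, and their part in the results on the 8 genes was not tested.

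Hsp27 showed the largest difference of the 8 genes. It had 47.3, 70.1 and 47.9 CPM in CBP-KD and 65.6, 61.7 and 52.8 CPM in E(z)-KD, against 12.8, 15.2 and 15.4 CPM in WT. The lowest knockdown library stood about 3 times above the highest WT library, and the knockdowns overlapped each other. The difference was 3.76-fold in CBP-KD (log2 fold change 1.91 ± 0.15 SE, edgeR adjusted p = 1.22e-08) and 4.09-fold in E(z)-KD (2.03 ± 0.15 SE, edgeR adjusted p = 8.06e-09). Among the maternal genes Hsp27 lay at percentile 98.6 in CBP-KD and 98.8 in E(z)-KD.

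Hsp26 differed in the same direction with a smaller fold. It had 86.4, 114 and 87.5 CPM in CBP-KD and 72.5, 79.6 and 61.6 CPM in E(z)-KD, against 35.2, 37.5 and 37.4 CPM in WT. No library overlapped between any pair of genotypes, with CBP-KD above E(z)-KD above WT. The difference was 2.60-fold in CBP-KD (log2 fold change 1.38 ± 0.11 SE, edgeR adjusted p = 1.16e-08) and 1.94-fold in E(z)-KD (0.95 ± 0.11 SE, edgeR adjusted p = 1.17e-06), where it fell short of the 2-fold threshold that it passed without E(z)-KD c14 replicate 3 (1.05).

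Hsp23 moved against its neighbours Hsp26 and Hsp27. It had 46.3, 52.7 and 50.5 CPM in CBP-KD and 40.6, 40.1 and 43.5 CPM in E(z)-KD, against 76.6, 57.7 and 56.0 CPM in WT. The WT libraries were highest and WT replicate 1, the smallest library, stood above the other two. The log2 fold change was -0.33 ± 0.10 SE in CBP-KD (edgeR adjusted p = 0.00901) and -0.60 ± 0.10 SE in E(z)-KD (edgeR adjusted p = 9.58e-05). Without WT replicate 1 the value in CBP-KD was -0.19 and no longer passed (edgeR adjusted p = 0.0688).

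DnaJ-1 had 117, 145 and 125 CPM in CBP-KD and 107, 99.7 and 96.5 CPM in E(z)-KD, against 54.8, 46.1 and 46.7 CPM in WT. The genotypes did not overlap, with CBP-KD highest and WT lowest. It was 2.65-fold higher in CBP-KD (log2 fold change 1.41 ± 0.08 SE, edgeR adjusted p = 3.56e-10) and 2.08-fold higher in E(z)-KD (1.05 ± 0.08 SE, edgeR adjusted p = 1.33e-08). With DESeq2, the E(z)-KD value was 0.87 and fell under the 2-fold threshold.

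Hsc70-3 had 442, 581 and 524 CPM in CBP-KD and 704, 617 and 630 CPM in E(z)-KD, against 272, 306 and 311 CPM in WT. Here E(z)-KD was highest, and again no genotype overlapped another. It was 1.74-fold higher in CBP-KD (log2 fold change 0.80 ± 0.08 SE, edgeR adjusted p = 3.82e-07) and 2.19-fold higher in E(z)-KD (1.13 ± 0.08 SE, edgeR adjusted p = 9.11e-09). With DESeq2, the E(z)-KD value was 0.95, so that of the 3 calls in E(z)-KD Hsp27 alone remained with that tool.

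Hsp83 was lower in both knockdowns, unlike the other steeply declining genes. It had 111, 161 and 95.5 CPM in CBP-KD and 168, 173 and 129 CPM in E(z)-KD, against 192, 203 and 216 CPM in WT. The WT libraries were highest, and CBP-KD replicate 2 and E(z)-KD replicate 3 stood apart from the other libraries of their groups. It was 1.66-fold lower in CBP-KD (log2 fold change -0.73 ± 0.14 SE, edgeR adjusted p = 0.000233) and 1.30-fold lower in E(z)-KD (-0.38 ± 0.14 SE, edgeR adjusted p = 0.0254). The E(z)-KD value did not pass without E(z)-KD replicate 3 (-0.25, edgeR adjusted p = 0.142), without WT replicate 2 (-0.37) or 3 (-0.33), or without a filter on low counts (-0.34). CBP-KD replicate 2 also had the highest Hsp26, Hsp27, Hsp23, Hsc70-3, DnaJ-1 and Hsf of its group, and the lowest Hsc70-4.

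Hsc70-4 and Hsf changed least. Hsc70-4 averaged 3971 ± 145 CPM in CBP-KD and 3625 ± 38.9 CPM in E(z)-KD, against 4096 ± 216 CPM in WT. CBP-KD overlapped WT (log2 fold change -0.04 ± 0.04 SE, edgeR adjusted p = 0.33), and E(z)-KD lay below it (-0.18 ± 0.04 SE, edgeR adjusted p = 0.000983), a value that did not pass without the filter on low counts (edgeR adjusted p = 0.142). The CBP-KD value passed without WT replicate 1 (-0.09, edgeR adjusted p = 0.0392). Hsf averaged 103 ± 4.57 CPM in CBP-KD and 134 ± 8.48 CPM in E(z)-KD, against 123 ± 6.95 CPM in WT. It was lower in CBP-KD (-0.26 ± 0.06 SE, edgeR adjusted p = 0.000533) and overlapped WT in E(z)-KD, where the log2 fold change was 0.12 ± 0.06 SE (edgeR adjusted p = 0.0677) and changed sign with DESeq2 (-0.06). It passed without E(z)-KD replicate 3 (0.17) or WT replicate 2 (0.16). DESeq2's scaling placed the median of all genes lower by 0.17 (CBP-KD) and 0.18 (E(z)-KD) on the log2 scale, which moved each of the 8 genes by about as much (Hsc70-4 in CBP-KD to -0.22, DESeq2 adjusted p = 1.09e-09).

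**Figure D3:**
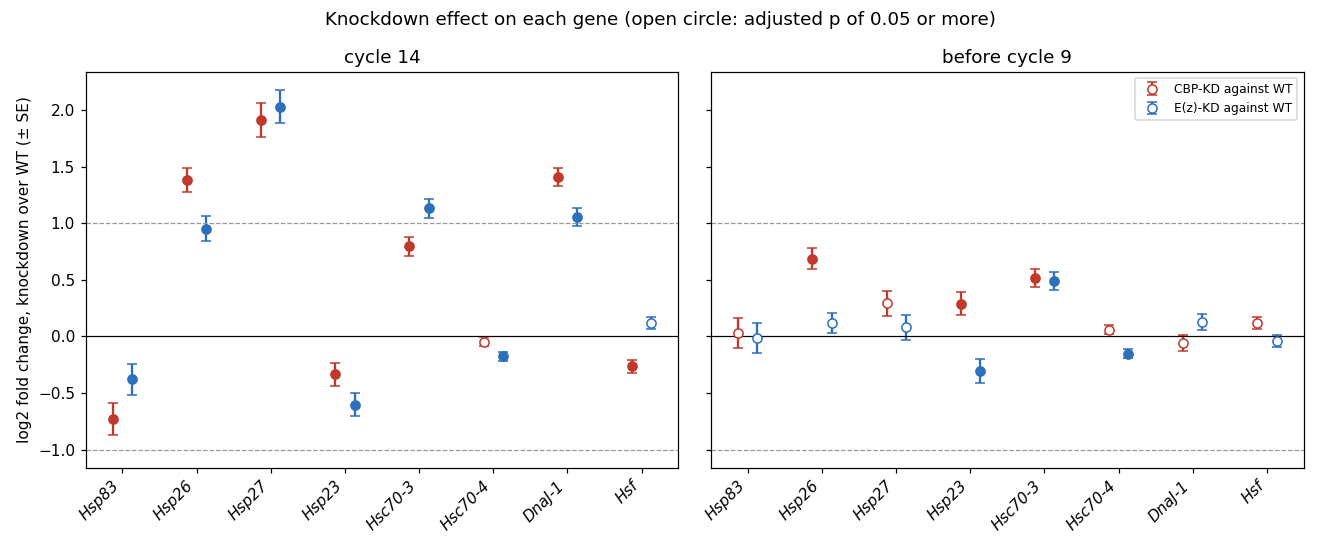
Log2 fold change of each knockdown over WT with SE bars from the edgeR fit, at cycle 14 on the left and before cycle 9 on the right. Filled points have an adjusted p under 0.05 and dashed lines mark a 2-fold change. At cycle 14 Hsp27 lies near 2 in both knockdowns, and before cycle 9 the largest value is 0.69 (Hsp26 in CBP-KD).

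Before cycle 9 the question was whether the eggs of the knockdown mothers already differed. In CBP-KD 0 of the 8 genes were called, against 9.93% of all genes, and 3 passed by the adjusted p alone, against 31.5%. In E(z)-KD 0 were called, against 9.54% of all genes, and 3 passed by the adjusted p alone, against 34.0%. With DESeq2 the count of called genes was also 0 in both. The stage markers differed here too. The zygotic markers summed to 2.82 to 14.7 CPM in CBP-KD, 0.113 to 3.70 CPM in E(z)-KD and 0 to 0.682 CPM in WT, with 4 of the 7 called higher in CBP-KD and 0 in E(z)-KD, and ftz and sog were at 0 in WT. The maternal markers summed to 8221 to 8313 CPM in CBP-KD, 7003 to 7239 CPM in E(z)-KD and 6829 to 7303 CPM in WT, with 0 of the 5 called. The older embryo markers summed to 0.743 to 2.36 CPM in CBP-KD, 0.0553 to 0.269 CPM in E(z)-KD and 0.170 to 0.615 CPM in WT, and 1 of them, elav, was called higher in CBP-KD. The part of these differences in the results on the 8 genes was not tested.

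Hsc70-3 was higher in both knockdowns before cycle 9. It had 1297, 1305 and 1274 CPM in CBP-KD and 1239, 1258 and 1301 CPM in E(z)-KD, against 849, 961 and 896 CPM in WT. The knockdowns overlapped each other and stood above WT, by 0.52 ± 0.08 SE in CBP-KD (edgeR adjusted p = 0.000142) and 0.49 ± 0.08 SE in E(z)-KD (edgeR adjusted p = 0.000166) on the log2 scale. Hsp26 had 2179, 2055 and 2113 CPM in CBP-KD and 1418, 1390 and 1466 CPM in E(z)-KD, against 1225, 1324 and 1393 CPM in WT. CBP-KD stood above the others (log2 fold change over WT 0.69 ± 0.09 SE, edgeR adjusted p = 2.69e-05), while E(z)-KD overlapped WT (0.12 ± 0.09 SE, edgeR adjusted p = 0.362).

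Hsp23 differed in opposite directions, at 39.9 ± 1.30 CPM in CBP-KD and 26.3 ± 3.20 CPM in E(z)-KD, against 32.6 ± 1.53 CPM in WT. Its log2 fold changes were 0.29 ± 0.10 SE in CBP-KD (edgeR adjusted p = 0.0443) and -0.31 ± 0.11 SE in E(z)-KD (edgeR adjusted p = 0.0341). The CBP-KD value did not pass with DESeq2 (0.24, adjusted p = 0.0951) nor without any 1 of the 6 libraries compared (edgeR adjusted p between 0.0705 and 0.143), and the E(z)-KD value did not pass without E(z)-KD replicate 2 (-0.21) or WT replicate 1 (-0.30) or 3 (-0.28). Hsc70-4 was lower in E(z)-KD (2580 ± 59.8 CPM, against 2870 ± 80.5 CPM in WT, log2 fold change -0.15 ± 0.04 SE, edgeR adjusted p = 0.00583), though not without the filter on low counts (edgeR adjusted p = 0.152). Hsp83 overlapped between the genotypes, at 3926 ± 81.2 CPM in CBP-KD, 3824 ± 28.4 CPM in E(z)-KD and 3850 ± 18.4 CPM in WT. Its log2 fold changes over WT were 0.03 ± 0.13 SE in CBP-KD and -0.01 ± 0.13 SE in E(z)-KD, and their signs flipped in CBP-KD with DESeq2, library size scaling or a stricter filter, and in both with a fit of the compared groups alone. Hsp27, DnaJ-1 and Hsf had log2 fold changes between -0.06 and 0.29 that did not pass in either knockdown. In a fit of the compared groups alone, Hsp27 in CBP-KD (0.22), DnaJ-1 in CBP-KD (-0.13) and in E(z)-KD (0.14), and Hsp26 in E(z)-KD (0.13) did pass.

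Whether the knockdown effect itself differed between the stages was tested as an interaction. In CBP-KD the change between stages was called different from that in WT for 2 of the 8 genes, both higher (6.71% of all genes were called higher), and 6 passed by the adjusted p alone (48.1% of all genes). These were Hsp27 (1.62 ± 0.19 SE on the log2 scale, edgeR adjusted p = 2.71e-06) and DnaJ-1 (1.46 ± 0.11 SE, edgeR adjusted p = 2.26e-08), and below the threshold Hsp26 (0.69), Hsf (-0.39), Hsp23 (-0.63) and Hsp83 (-0.76). Without CBP-KD c14 replicate 2 the Hsp83 value was -1.01 and was called. In E(z)-KD, Hsp27 was called (1.95 ± 0.19 SE, edgeR adjusted p = 4.88e-07) against 6.60% of all genes called higher, and 4 of the 8 passed by the adjusted p alone (41.0% of all genes), the others being DnaJ-1 (0.92), Hsp26 (0.84) and Hsc70-3 (0.64). Hsc70-3 in CBP-KD had a value of 0.28 (edgeR adjusted p = 0.058) and passed without CBP-KD c14 replicate 1 (0.38) or WT bfc9 replicate 1 (0.32). Hsc70-4 in CBP-KD (-0.10) passed without WT c14 replicate 1 (-0.15), and in E(z)-KD Hsp23 (-0.30) passed without E(z)-KD bfc9 replicate 2 (-0.39) and Hsf (0.16) without E(z)-KD c14 replicate 3 (0.21). With DESeq2 on all libraries, Hsc70-4 in CBP-KD (-0.23) and Hsp83 (-0.52), Hsp23 (-0.45) and Hsc70-4 (-0.17) in E(z)-KD also passed. Their DESeq2 adjusted p lay between 1.41e-05 and 0.0151.

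The knockdowns were also compared with each other. At cycle 14, 0 of the 8 genes were called between CBP-KD and E(z)-KD, where 15.4% of all genes were, and 6 passed by the adjusted p alone (41.2% of all genes). Hsp26, DnaJ-1, Hsp23 and Hsc70-4 were higher in CBP-KD by 0.43, 0.35, 0.27 and 0.13 on the log2 scale, and Hsf and Hsc70-3 were lower, with values of -0.39 and -0.33. The edgeR adjusted p of these genes lay between 3.63e-05 (Hsf) and 0.0454 (Hsp23). The Hsp23 value did not pass without any 1 of 5 of the 6 libraries, nor with no filter or the stricter filter. The Hsc70-4 value did not pass without replicate 3 of either knockdown (0.10 and 0.12) or with no filter (edgeR adjusted p = 0.214). It also did not pass with the stricter filter or in a fit of these groups alone. In that last fit the Hsp26 value did not pass either (edgeR adjusted p = 0.0532). Hsp83 had a log2 fold change of -0.35 ± 0.14 SE (edgeR adjusted p = 0.0518), which passed without CBP-KD replicate 2 (-0.61, edgeR adjusted p = 0.000185), without E(z)-KD replicate 3 (-0.48) and with DESeq2 (adjusted p = 0.0264). Hsp27 had a log2 fold change of -0.12 ± 0.12 SE (edgeR adjusted p = 0.467), and without CBP-KD replicate 2 of -0.34 (edgeR adjusted p = 0.00708).

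Before cycle 9, 0 of the 8 were called between the knockdowns (8.67% of all genes) and 4 passed by the adjusted p alone (28.1% of all genes). These were higher in CBP-KD: Hsp23 by 0.60, Hsp26 by 0.57, Hsc70-4 by 0.21 and Hsf by 0.16 on the log2 scale, with edgeR adjusted p between 0.000234 (Hsp26) and 0.0323 (Hsf). The Hsf value did not pass with library size scaling (0.06), without any 1 of 5 of the 6 libraries, or with either other filter. DnaJ-1 had a value of -0.19 (edgeR adjusted p = 0.0603). It passed with DESeq2 (-0.20), library size scaling (-0.28), the stricter filter (-0.23) and a fit of these groups alone (-0.28). DESeq2 also called 0 genes in both comparisons of the knockdowns.

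Hsp26, Hsp23 and Hsp27 are neighbours. On chromosome arm 3L of dm6, Hsp26 lies at 9376418 to 9377427 on the minus strand, Hsp23 at 9381882 to 9382765 and Hsp27 at 9384063 to 9385694, both on the plus strand, so that the 3 genes span 9277 bp. Each is a single exon in the annotation, as is DnaJ-1, while Hsp83 has 2 exon blocks, Hsc70-3 and Hsc70-4 have 5 and Hsf has 8. The remaining genes are dispersed, with Hsp83 at 3L 3192969 to 3197059, DnaJ-1 at 3L 5750029 to 5752189, Hsc70-4 at 3R 15242687 to 15246614, Hsc70-3 at X 11801696 to 11807117 and Hsf at 2R 18130303 to 18134634. Hsp83 and Hsp27 each overlap a gene on the opposite strand in the annotation. CG14966, the one that overlaps Hsp83, had 7.49 ± 0.458 CPM in CBP-KD, 9.30 ± 0.526 CPM in E(z)-KD and 12.4 ± 2.30 CPM in WT at cycle 14, and the one that overlaps Hsp27 was not analysed here.

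Genes chosen by position, within 10000 bp of the small heat shock genes, did not share one direction at cycle 14. The small heat shock gene Hsp22 had log2 fold changes of -0.51 in CBP-KD (edgeR adjusted p = 0.000407) and 0.22 in E(z)-KD (edgeR adjusted p = 0.0726). Hsp22 overlaps Hsp67Bb, and 7 of its 18 values were not whole, so its counts are uncertain. The kinesin gene Klp67A was higher in both knockdowns (0.35 and 0.60, edgeR adjusted p = 4.73e-06 and 1.33e-08), CG4080 was higher in both (0.50 and 0.33) and CG4452 was lower in both (-0.64 and -0.47). None of these reached a 2-fold change. Fdxh and CR43481 had values between -0.24 and 0.25 that did not pass. Hsp67Ba, Hsp67Bb, Hsp67Bc and CG4461 averaged under 1 CPM in every group and were not tested.

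**Figure D4:**
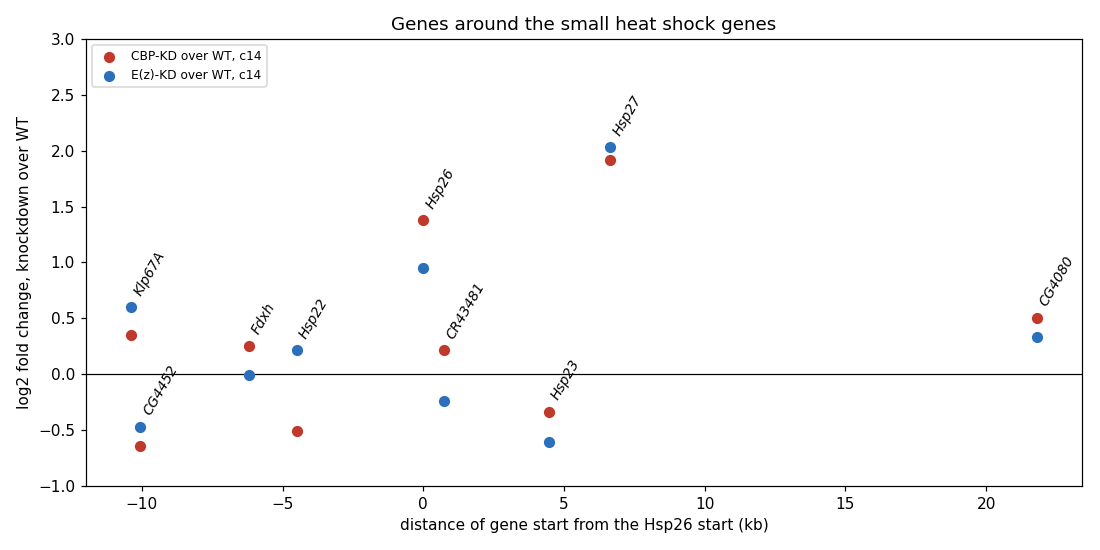
Log2 fold change of each knockdown over WT at cycle 14 for the tested genes around the small heat shock genes, placed by the distance of their start from that of Hsp26 in kb. Hsp26 and Hsp27 stand highest, and Hsp23, which lies between them, is below 0 in both knockdowns.

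Other genes of the chaperone system were described with lists of co-chaperones, chaperonins and folding enzymes, in which 59 of 73 genes were tested. In WT, 31 of the 59 were called lower at cycle 14 than before cycle 9 and 3 higher, beside 29.8% of all genes and 39.3% of the maternal genes called lower. The median log2 fold change was -1.29 over the 59 and 0.13 over all genes. The 3 are near-identical Hsp70 copies. Of the chaperonins and prefoldin subunits, among them the ring complex that folds actin and tubulin, 12 of 15 were called lower and 0 higher, with a median log2 fold change of -2.11. Of these, the mitochondrial chaperonin Hsp60 averaged 42.5 ± 6.88 CPM at cycle 14 and 751 ± 42.0 CPM before cycle 9 (log2 fold change -4.12), and the prefoldin subunit mgr had a log2 fold change of -3.42. Among 12 Hsp90 relatives and co-chaperones 5 were called lower, led by the immunophilin FKBP59 (-3.995) and the myosin chaperone unc-45 (-3.86). Among the J-domain and nucleotide exchange genes 6 of 10 were called lower, with P58IPK (-3.34) and DnaJ-H (-2.22) in front, and among the genes of the endoplasmic reticulum 6 of 12, with CG10420, the fly Sil1, (-3.21) and the oxidase Ero1L (-2.48) in front. The mitochondrial Hsp70 gene Hsc70-5 (-3.55) and the Hsp110 gene Hsc70Cb (-2.99) were lower as well. The edgeR adjusted p of these named genes was at most 2.61e-11.

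Against WT at cycle 14, CBP-KD had 6 of the 59 genes called higher and 5 called lower, and for E(z)-KD both counts were 6. This is 10.2% called higher in each, near the 12.0% and 11.3% of all genes. Of the calls over all genes, 44.1% in CBP-KD and 46.5% in E(z)-KD were higher, so more were lower. Outside the Hsp70 copies FKBP59 had the largest increase, with 45.9 ± 4.72 CPM in CBP-KD and 60.6 ± 2.79 CPM in E(z)-KD, against 8.95 ± 0.518 CPM in WT (log2 fold changes 2.37 and 2.77, edgeR adjusted p = 1.45e-11 and 5.01e-12). DnaJ-H averaged 51.5 ± 7.41 CPM in CBP-KD and 49.1 ± 1.07 CPM in E(z)-KD, against 15.6 ± 3.17 CPM in WT (1.69 and 1.61). Ire1, the sensor kinase of the unfolded protein response, averaged 213 ± 7.89 CPM in CBP-KD and 201 ± 18.6 CPM in E(z)-KD, against 76.8 ± 4.08 CPM in WT (1.48 and 1.39). Hsc70-5 was higher in both (1.00 and 1.01), and Xbp1, the transcription factor whose RNA Ire1 splices, was called higher in E(z)-KD (1.03). The edgeR adjusted p of these 4 genes was at most 2.69e-08. Hsc70-5 in both knockdowns and Xbp1 in E(z)-KD lay just over the 2-fold threshold. Values under the alternative settings are given here for the 8 genes alone, so the stability of these calls is not shown.

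The genes called lower were of several lists. The prefoldin subunit CG10635 (Pfdn4) was called lower in CBP-KD (log2 fold change -1.35), and the chaperonin subunit CG5525 (CCT4, -1.08) and Ero1L (-1.06) in E(z)-KD. The others were unc-45 and CG5001 in both and Hsp70 copies. For the chaperonins and prefoldin the median was -0.04 in CBP-KD and 0.20 in E(z)-KD, for the Hsp90 relatives 0.12 and 0.24, for the J-domain and exchange genes 0.06 and 0.15, and for the endoplasmic reticulum genes 0.11 and 0.16, beside 0.01 and -0.03 over all genes. The small heat shock genes tested beside the 3 above, Hsp22 and CG14207, had a median of -0.58 in CBP-KD and -0.06 in E(z)-KD, with CG14207 at -0.64 (edgeR adjusted p = 1.72e-05) and -0.35 (edgeR adjusted p = 0.00423).

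Before cycle 9, CBP-KD had 3 of the 59 genes called higher than in WT and 2 called lower, and E(z)-KD had 3 called higher and 1 called lower. Over all genes, 9.93% were called in CBP-KD and 9.54% in E(z)-KD. The Hsp90 co-chaperone Cdc37, which brings kinases to Hsp90, had 201 ± 9.12 CPM in E(z)-KD and 80.7 ± 6.21 CPM in WT (log2 fold change 1.32, edgeR adjusted p = 8.23e-11), and Hsp68 was called higher in E(z)-KD (1.08, edgeR adjusted p = 0.000297). In CBP-KD Cdc37 was higher below the 2-fold threshold (146 ± 4.93 CPM, log2 fold change 0.86, edgeR adjusted p = 3.87e-08) and Hsp68 was lower (-0.78, edgeR adjusted p = 0.00702). CG5001, a J-domain gene, was low in both knockdowns, at 0.958 ± 0.572 CPM in CBP-KD and 0.375 ± 0.230 CPM in E(z)-KD, against 9.65 ± 1.10 CPM in WT (-3.31 and -4.66, edgeR adjusted p = 3.54e-05 and 1.39e-06). HIP-R, an Hsp70-interacting protein, was called higher in CBP-KD at both stages (1.31 before cycle 9 and 1.26 at cycle 14), but its counts are divided with its near-identical copy HIP and were not whole in 16 libraries. The sum of HIP and HIP-R was 465 ± 24.6 CPM in CBP-KD and 411 ± 18.2 CPM in E(z)-KD, against 309 ± 11.8 CPM in WT at cycle 14, with no overlap between the genotypes (ratios to WT 1.51 and 1.33, exact two-sided permutation p = 0.1 each, the smallest that 3 against 3 can give). Before cycle 9 the sum was 326 ± 3.98 CPM in CBP-KD and 264 ± 9.18 CPM in E(z)-KD, against 212 ± 11.8 CPM in WT. These also did not overlap (ratios to WT 1.54 and 1.24, exact two-sided permutation p = 0.1 each).

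**Figure D5:**
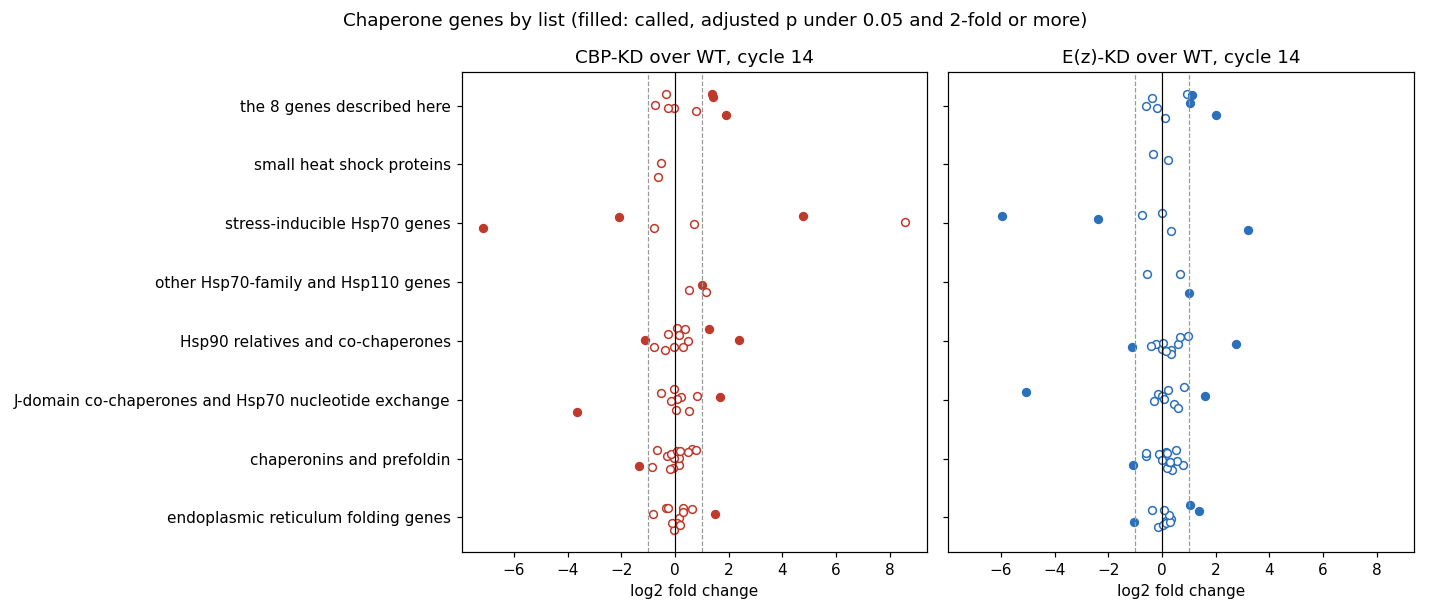
Log2 fold change of each knockdown over WT at cycle 14 for the 8 genes (top row) and for the 59 other tested chaperone genes by list, one point a gene. Filled points are called; the widest values belong to near-identical Hsp70 copies, whose single counts are uncertain.

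The heat-inducible Hsp70 genes are near-identical copies, and reads may be divided between them, so single copies are uncertain. At cycle 14, Hsp70Bb averaged 72.2 CPM in CBP-KD and 24.5 CPM in E(z)-KD, against 2.73 CPM in WT, while Hsp70Bbb averaged 0.0471 CPM in CBP-KD and 0.101 CPM in E(z)-KD, against 7.03 CPM in WT, and Hsp70Aa averaged 4.91 CPM in CBP-KD and 12.5 CPM in E(z)-KD, against 20.8 CPM in WT. The sum over the 6 copies was therefore used. It was 80.3, 86.1 and 77.3 CPM in CBP-KD and 39.9, 38.1 and 33.9 CPM in E(z)-KD, against 32.1, 30.9 and 32.6 CPM in WT. CBP-KD stood well above the others and E(z)-KD just above WT, with ratios to WT of 2.55 and 1.17 (exact two-sided permutation p = 0.1 each). Before cycle 9 the sums were 20.3 ± 2.57 CPM in CBP-KD, 21.1 ± 3.20 CPM in E(z)-KD and 18.3 ± 3.31 CPM in WT and overlapped (exact two-sided permutation p = 0.5 each).

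Finally, for each of the 8 genes the 2 genes with the most similar log2 CPM over the 18 libraries were sought among 6641 genes with a mean of at least 5 CPM. These correlations carry the large difference between the stages, and are given as a description. Hsp83 was closest to dx (Pearson r = 0.9989) and to Cnx99A (0.9988), Hsp26 to CG6664 (0.9971) and l(2)37Cc (0.9968), Hsp27 to APC7 (0.9989) and Hcs (0.998), and DnaJ-1 to CG8289 (0.9971) and E(var)3-9 (0.994). Hsf was closest to CG31694 (0.9962) and to the chaperonin subunit CG7033 (0.9937). Hsc70-3 was closest to eIF5B (0.9935) and Snm1 (0.9913), and Hsc70-4 to MEP-1 (0.9922) and tlk (0.9899). Hsp23 had the weakest likeness, to MAGE (0.9453) and CG32230 (0.9419).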

How the data were processed

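Total RNA-seq of 18 embryo libraries was analysed. The authors depleted ribosomal RNA, made stranded libraries, mapped reads to dm6 with STAR in two-pass mode keeping multimapping reads. The authors deposited estimated counts per gene (expected counts) without normalization. The counting tool, annotation and strand setting are not given in the sources used here, and reads shared between copies can be divided: 2.9% of the values lay more than 0.01 from a whole number, but none of those of the 8 genes. Spike-ins were not used here.

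The design had assumed whole counts, so values were rounded. The test used R 4.3.3 with limma 3.58.1 and edgeR 4.0.16, with TMM factors, filterByExpr by group (8467 genes), a quasi-likelihood F test with 1 mean for each of 6 groups (12 residual degrees of freedom, common biological coefficient of variation 0.115) and Benjamini-Hochberg adjustment over all genes tested. A call needed an adjusted p under 0.05 and a change of at least 1 in either direction on the log2 scale. The SE was obtained as the size of the log2 change over the square root of F. Maternal genes had at least 10 CPM in WT before cycle 9. TPM, coordinates and lengths used Ensembl release 115 (BDGP6.54, the coordinates of dm6), to which 12504 names matched as current and 3992 as older symbols, leaving 184. Figures were made with Python 3.11.15 and matplotlib 3.10.9.

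The members, lists and markers were chosen with earlier results of these data known. Named listed genes are up to 2 per list, direction and comparison with the largest change among called genes whose libraries did not overlap and whose higher mean reached 5 CPM, and for each member the 2 other genes with the closest profile; the genes around the small heat shock cluster, CG14207 and the further Hsp70 copies were added after their values were seen. Alternatives were DESeq2 1.42.0, library size scaling, no filter, at least 10 counts in every sample, fits of the compared groups alone, a replicate block, no fold threshold and each library left out. Group assignments came from the sample titles.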

Additional observations from a re-analysis of the deposited data

Results flagged for a closer look

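For 10 pairs of a gene and a knockdown, the change between stages differed from that in WT by the adjusted p of the edgeR interaction test. By this adjusted p alone, 48.1% of all genes tested passed in CBP-KD and 41.0% in E(z)-KD. Only Hsp27 and DnaJ-1 in CBP-KD and Hsp27 in E(z)-KD were called, and the other pairs lay under the 2-fold threshold. The values are differences of log2 fold changes, knockdown minus WT. In CBP-KD they were 1.62 for Hsp27 (edgeR adjusted p = 2.71e-06), 1.46 for DnaJ-1 (2.26e-08), 0.69 for Hsp26 (0.000656), -0.39 for Hsf (0.000525), -0.63 for Hsp23 (0.00215) and -0.76 for Hsp83 (0.00377). In E(z)-KD they were 1.95 for Hsp27 (edgeR adjusted p = 4.88e-07), 0.92 for DnaJ-1 (3.81e-06), 0.84 for Hsp26 (0.000153) and 0.64 for Hsc70-3 (0.000273). Positive values mean that the RNA was higher at cycle 14, relative to before cycle 9, in the knockdown than in WT.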

How the results depend on the processing

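Of 1152 alternative values of the 8 genes, 1116 kept their direction and their side of the 2-fold threshold, 8 fell under it, 8 rose over it and 20 changed sign. The 20 belonged to 8 pairs of a gene and a comparison with a main value of at most 0.12 in size, and 0 of these had passed the adjusted p. The adjusted p alone was less stable. Of 64 pairs that passed it, 54 did so under every alternative, 41 values lost it, and some other values passed only under an alternative. With DESeq2 the sign changed for Hsf in E(z)-KD at cycle 14 (-0.064) and Hsp83 in CBP-KD before cycle 9 (-0.023).
With library size scaling it changed for Hsp83 in CBP-KD before cycle 9 against WT (-0.083) and against E(z)-KD (-0.057), for Hsc70-3 (-0.065) against E(z)-KD, and for Hsc70-4 in CBP-KD before cycle 9 (-0.052) and in the interactions (0.052 in CBP-KD, 0.0072 in E(z)-KD). With at least 10 counts in every sample it changed for Hsp83 (-0.022 against WT, -0.00019 against E(z)-KD) and Hsc70-3 (-0.0086), and with no filter for Hsc70-4 in the E(z)-KD interaction (0.017). In fits of the compared groups alone it changed before cycle 9 for Hsp83 (-0.047 in CBP-KD, 0.0024 in E(z)-KD and -0.051 between the knockdowns), Hsc70-4 (-0.016) and Hsc70-3 (-0.060). With 1 library left out, the Hsc70-4 interaction in E(z)-KD ranged over -0.061 to 0.015.

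The count of called genes moved in E(z)-KD at cycle 14 with DESeq2 (1 in place of 3). For the stages DESeq2 called 5 in place of 6 in CBP-KD (without DnaJ-1, -0.95), 4 in place of 5 in E(z)-KD (without Hsf, -0.98) and 6 in WT, where Hsp23 (1.20, higher) took the place of Hsf (-0.99). Without a fold threshold it was 7 in each knockdown at cycle 14, 3 in each before cycle 9, 8 for the stages in each genotype, 6 and 4 between the knockdowns at cycle 14 and before cycle 9, and 6 (CBP-KD) and 4 (E(z)-KD) for the interactions. With 1 library left out, the counts ranged over 3 to 3 in CBP-KD and 3 to 4 in E(z)-KD at cycle 14, 6 to 6 for the stages in CBP-KD, 5 to 6 in E(z)-KD and 6 to 7 in WT, 2 to 3 and 1 to 1 for the interactions, and 0 elsewhere. DESeq2 moved the median of all genes by -0.17 and -0.18 in the knockdowns at cycle 14, 0.13, 0.10 and 0.25 for the stages in CBP-KD, E(z)-KD and WT, and -0.12 and -0.15 for the interactions, so changes are relative to it. The share of calls that were higher then became 34.8% in place of 44.1% in CBP-KD and 36.2% in place of 46.5% in E(z)-KD at cycle 14. For the stages in WT it became 51.9% in place of 41.3%. For the interactions it became 26.3% in place of 34.8% in CBP-KD and 33.0% in place of 44.9% in E(z)-KD. The cause was not tested.

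The same replicate numbers occur in each group. Deviations of same-numbered libraries had correlations between -0.184 and 0.188. Each pair was positive in E(z)-KD against WT before cycle 9 (0.17, 0.044 and 0.154), which no other comparison showed. The labels do not say whether same-numbered libraries share a collection or batch, and these correlations cannot settle it. The replicate block changed 0 of 88 calls of the 8 genes. It left 3 called in each knockdown at cycle 14 and 0 before cycle 9, and put Hsp83 between the knockdowns at cycle 14 past the adjusted p (-0.36, edgeR adjusted p = 0.0417).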
